A study of Mus musculus with 21 samples.

Results

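The ATP-binding cassette (ABC) transporter family was followed in 6 murine pancreatic ductal adenocarcinoma (PDAC) cell lines before, during and after exposure to trametinib, an inhibitor of the kinase MEK (MEKi). Members were all rows of the deposited table whose symbol consists of Abc, a letter from a to g, a number and, for some, a closing a or b. This rule found 50 of 34478 genes. Of these, 41 had 10 or more normalized counts in 3 or more of the 21 samples and are called expressed below.

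The lines, numbered #3, #4, #6, #7, #9 and #10, were primary cells from pancreatic tumours of mice that carried, among their alleles, Ptf1awt/Cre and Trp53loxP/loxP. Every group shares this genotype, in which Cre driven by the Ptf1a locus removes Trp53 in the pancreatic lineage. Parental cells had never met the drug (n = 6, 1 sample per line), Resistant cells had been raised to growth in 100 times their IC50 of trametinib and were held there (n = 6), and P12 and P5 cells were Resistant cells kept for 12 (n = 6) or 5 passages (n = 3, lines #3, #7 and #9) without the drug. For P5 of #7 and #9 another label gives 12 passages, and the name P5 is kept here. The cell line is the replicate throughout. Genome sequencing in the study covered #3 and #9 alone, where the Resistant cells were described as grown from a clone, and clonality of the other lines was not tested.

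ABC proteins bind and split ATP to move a substrate across a membrane. Members of the B, C and G subfamilies include the pumps that export drugs from cells, of which P-glycoprotein (Abcb1a and Abcb1b in the mouse), the multidrug resistance proteins (Abcc) and Abcg2 are the best known. Most A members move sterols and phospholipids, most D members carry fatty acids into peroxisomes, and E and F members have no membrane part and act on ribosomes. In normal pancreas, Cftr, a relative outside the naming rule, lets chloride and bicarbonate leave duct cells. The question these data bear on is which of these genes differed in cells that grow in the presence of a drug, and whether they returned to the Parental level once it was removed. The study found ERK phosphorylation strongly blocked in resistant cells and proposed from this that resistance did not depend on drug efflux. Transport of trametinib was not tested here.

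The libraries held 28576700 to 37119700 normalized counts, from an estimated 24.0 to 42.6 M reads (M for mega), and 3 reads, taken as the floor of detection for counting error only, equalled 2.31 to 4.07 normalized counts. The summed normalized count of 6 epithelial markers lay at 15942 to 282743 (median 246719) in Parental, 1014 to 209982 (median 62431) in Resistant and 489 to 205782 (median 50681) in P12 cells, and Parental #9 had the lowest Parental sum. Epcam, a defining marker on that list, was listed at 0 in 20 of 21 samples. The sum of 6 fibroblast markers lay at 105 to 21999 (median 472) in Parental, 1881 to 560350 (median 169144) in Resistant and 218 to 147755 (median 31061) in P12 cells. The median sum of 6 mural markers was 148 in Parental, 9690 in Resistant and 6151 in P12 cells, and that of 5 endothelial markers 65.8, 389 and 95.1. Both lists were mixed. From Parental to Resistant cells, median Acta2 (25.5 and 5107), Pdgfrb, Des and Notch3 were higher. Median Rgs5 (2.50 and 1.01) and Cspg4 (28.8 and 5.75) were lower. Median Tek (1.45 and 274), Kdr (21.8 and 98.6) and Tie1 (4.46 and 5.76) were higher. Median Pecam1 (24.3 and 19.1) and Cdh5 (0.35 and 0) were lower. The sum of 6 immune markers lay at 136 to 244 in Parental, 202 to 2896 in Resistant and 183 to 243 in P12 cells. Within it Cd3e, of T cells, stayed under 10 everywhere and Ptprc, of all leukocytes, had a median of 12.6 in Parental and 5.68 in Resistant cells, while Csf1r, of macrophages, had 2.67 to 39.7 in Parental and 17.7 to 2530 in Resistant cells (2530 in #10, 229 in #4) and Cd68 had 118 to 215 and 166 to 348. The part of these marker shifts in the ABC values was not tested, and in bulk RNA fewer cells of a type and less RNA per cell cannot be told apart.

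Against Parental cells, Resistant cells had higher levels of Abcg2, Abcb6, Abca8b and Abcb11 and a lower level of Abcb1a. These 5 of 41 expressed members (12.2%) were called, which means a Benjamini-Hochberg adjusted p below 0.01 in limma over all 19300 genes tested and an absolute log2 fold change over 1, where 5.3% of all genes tested were called. Among them 4 were higher (9.76%, beside 2.57% of all genes) and 1 lower (2.44%, beside 2.73%). Abcb11 met the expression rule through 5 Resistant samples and 1 Parental sample, so its difference between these states is tied to its entry, and without it 4 of 40 members were called (10%), 3 of them higher (7.5%). In 4 members the Parental and Resistant samples did not overlap (9.76%, beside 5.99% of all genes): Abcg2, Abcb6 and Abca9 were higher and Abcb1a lower. The median log2 fold change was -0.05 over the members and -0.0049 over all genes tested. When the cell line entered the fit as a block, 8 members were called (19.5%, beside 10.5% of all genes), 6 higher (4.85% of all genes) with Abca4 and Abca9 added and 2 lower (5.6% of all genes) with Abcc3 added, and without Abcb11 7 of 40 (17.5%). Without line #3 or without line #6 no member was called, without #4 only Abcg2, without #10 3 members, without #7 5 and without #9 7, while the calls over all genes went from 1023 to between 450 and 1237.

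After 12 drug-free passages, 1 member, Abcg2, was called lower than in Resistant cells (2.44%, beside 2.13% of all genes in either direction and 0.85% lower), and 4 were called with the cell line as a block (9.76%, beside 4.52%): Abcg2, Abcb6 and Abcb11 lower and Abcb1a higher, or 3 of 40 without Abcb11 (7.5%). Abcg2 was also the 1 member without overlap between P12 and Resistant samples (2.44%, beside 2.45% of all genes). Between P12 and Parental cells 0 members were called by limma (0.114% of all genes), with 8 members at an unadjusted p under 0.05 (19.5%, beside 15.3% of all genes). The block also gave 0 (0.523% of all genes), with 14 members at an unadjusted p under 0.05 (34.1%, beside 23.8% of all genes). The comparisons share samples and are given side by side.

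**Figure D1:**
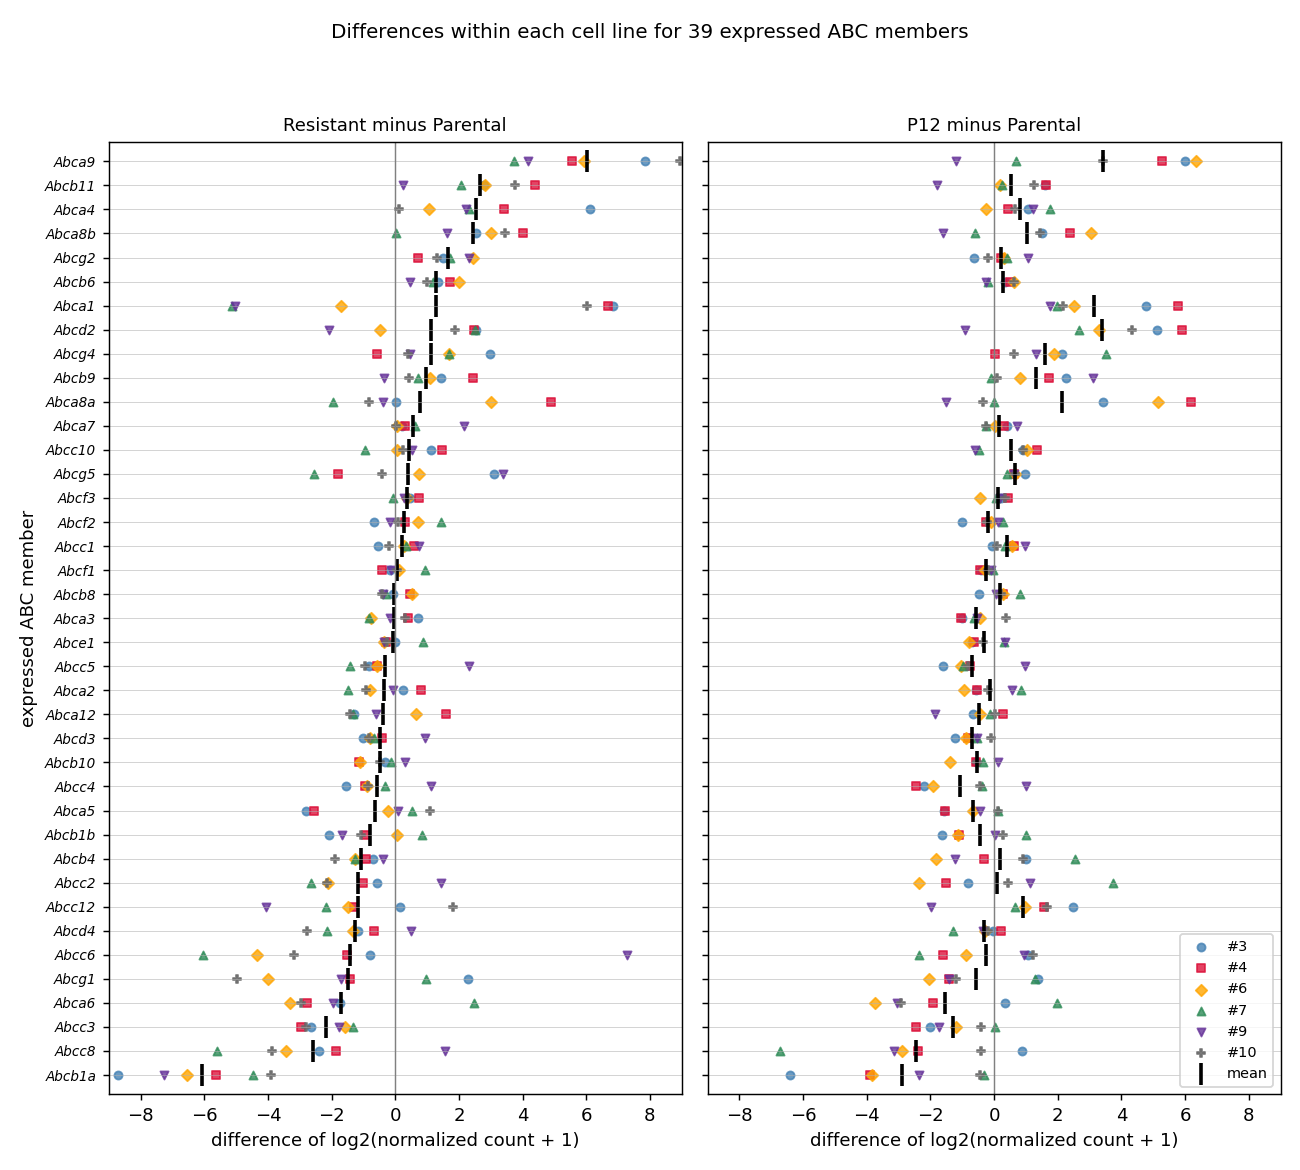
Difference of log2(normalized count + 1) between states of the same cell line for 39 of the 41 expressed ABC members, ordered by the mean difference of Resistant minus Parental. Each symbol is 1 cell line and the black bar is the mean of 6 lines. Abcb1a lies at the bottom with all 6 lines below 0 in Resistant cells, and in P12 cells its lines spread from -6.42 to -0.33.

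Levels can be compared between genes only per length, so normalized counts were divided by the kilobases of the longest coding transcript. On this scale, the median over Parental samples was highest for the ribosome-associated members Abce1 (2463 per kilobase), Abcf2 (2108) and Abcf1 (1995), followed by Abcc5 (1881), an exporter of cyclic nucleotides. Abcb1a stood at rank 12 of 41 in Parental cells (537 per kilobase), at rank 28 in Resistant cells (5.89) and at rank 25 in P12 cells (28.5). Abcg2 stood at rank 17 in Parental (391 per kilobase), 5 in Resistant (1259) and 15 in P12 cells (383). In Resistant cells it thus lay just under Abcc5 (1496) and above Abcc1 (1020) among the drug efflux members.

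Abcb1a, 1 of the pair of mouse genes for P-glycoprotein, had a Resistant minus Parental difference of -6.08 (SE 1.29), similar in size to the 6.03 (SE 1.52) of Abca9, and its near copy Abcb1b was read in the same samples. How far reads can tell the pair apart depends on their sequences. Their coding sequences are 3831 bases each and identical at 88.1% of 3822 aligned bases, and 23.3% of the 31-base stretches of Abcb1a and 15.0% of those of Abcb1b also occur in the other gene. The stretch below, in exon 16 of both genes, is shown because it is where 90 bases differ at 29 positions, given in capitals, and reads from it can be assigned. It lies at chr5:8714894-8714983 in Abcb1a and at chr5:8827333-8827422 in Abcb1b, both on the plus strand of GRCm38.
Abcb1a: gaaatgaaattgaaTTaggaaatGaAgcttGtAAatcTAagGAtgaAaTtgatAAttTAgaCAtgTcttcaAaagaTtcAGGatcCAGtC
Abcb1b: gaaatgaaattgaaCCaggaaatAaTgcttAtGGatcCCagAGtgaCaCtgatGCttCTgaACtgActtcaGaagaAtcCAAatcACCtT

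Abcb1a had 288 to 3644 normalized counts in Parental cells (median 2684), 0.89 to 198 in Resistant cells (median 29.4) and 39.4 to 2899 in P12 cells (median 143). Every Resistant value lay under every Parental value, and in Resistant #9 it was under the floor of 3 reads. The fall came to -6.08 on the log2 scale (SE 1.29, limma adjusted p = 0.0038), a 67.8-fold lower level on the log2(value + 1) scale, and was seen in 6 of 6 lines with differences of -8.70 to -3.89. Leaving out line #3, #4 or #6 ended the call, with limma adjusted p-values of 0.0259, 0.0194 and 0.0252.

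In P12 cells the lines went apart. Abcb1a stayed at 39.4 in #3, 117 in #4, 168 in #6 and 55.0 in #9, where Parental cells had 3472, 1736, 2403 and 288. It stood at 2899 in #7 and 2199 in #10, near the 3644 and 2964 of their Parental cells. All 6 lines were above their Resistant cells, with a log2 fold change of 3.21 (SE 1.29) that was not called without the block (limma adjusted p = 0.161) and was called with it (limma adjusted p = 0.0051). Against Parental cells P12 had a log2 fold change of -2.88 (SE 1.29, limma adjusted p = 0.293, and 0.0259 with the block). Among P12 samples the epithelial marker sum was also high in #7 (205782) and #10 (138210), with 33258, 48620, 52741 and 489 in #3, #4, #6 and #9. From Parental to Resistant cells the sum fell in every line, as Abcb1a did. The sum was higher in Resistant than in P12 cells in 5 of 6 lines, while Abcb1a was lower in Resistant cells of 6 of 6. Resistant #7 had a sum of 209982 with 163 normalized counts of Abcb1a. The summed markers differed among themselves. Median Cdh1 (58.4 and 2162), Krt8 (14264 and 14380) and Krt18 (13349 and 23743) were lower in Resistant than in P12 cells. Median Krt7 (862 and 107) and Krt19 (28692 and 11953) were higher. Whether the marker shift and the Abcb1a level are linked was not tested.

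Abcb1b had 1940 to 5491 normalized counts in Parental (median 3104), 717 to 3491 in Resistant (median 2406) and 1084 to 6708 in P12 cells (median 2132). The states overlapped, and Resistant minus Parental was -0.80 (SE 0.46, limma adjusted p = 0.257, 95% interval -1.76 to 0.15). Abcb1b was lower in 4 of 6 Resistant lines and higher in #6 and #7. The sum of both genes, which does not depend on how shared reads were split, was lower in Resistant than in Parental cells of 6 of 6 lines, from 6829 to 804 normalized counts in #3 and from 5255 to 2983 in #6. Abcb1a made up a median of 40.4% of that sum in Parental, 1.22% in Resistant and 8.60% in P12 cells, and at most 7.01% in any Resistant sample. Abcb1b was the larger part in every sample but Parental #3 and #7, where Abcb1a made up 50.8% and 65.3%.

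**Figure D2:**
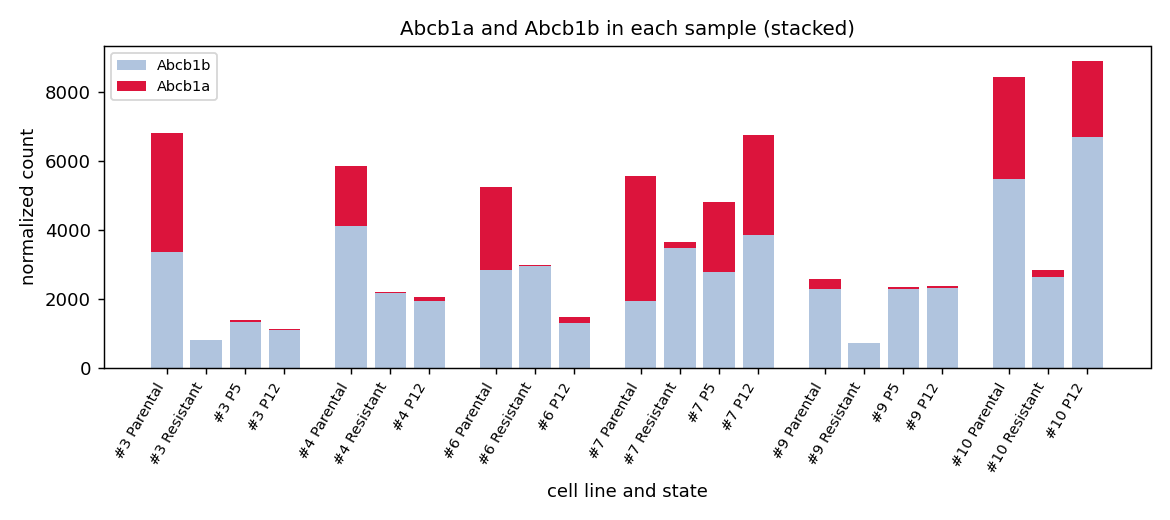
Normalized counts of Abcb1a (red) on top of Abcb1b (blue) in each of the 21 samples, by cell line and state. Bar height is the sum of both genes. The red part nearly disappears in every Resistant sample and is large again in P12 of #7 (2899) and #10 (2199).

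Abcg2, which exports many drugs as well as urate and porphyrins, went the other way. It had 645 to 2939 normalized counts in Parental (median 2237), 3232 to 7760 in Resistant (median 7198) and 1352 to 2855 in P12 cells (median 2190). All Resistant samples were above all Parental and all P12 samples. The rise was 1.67 on the log2 scale (SE 0.33, limma adjusted p = 0.0021), or 3.18-fold, in 6 of 6 lines with differences of 0.73 to 2.43, and it missed the threshold without #3 (limma adjusted p = 0.0122), without #6 (0.0211) and in a fit of both states alone (0.0110). From Resistant to P12 it fell by 1.47 (SE 0.33, limma adjusted p = 0.00998) in 6 of 6 lines, just inside the threshold. This call was kept with the block, with a mean of at least 100 and without #9, and was lost with pseudocounts of 0.5 or 8, no filter, upper quartile rescaling, no trend, both states alone with or without the block, and without any other line (limma adjusted p = 0.0101 to 0.0683). Its P12 level differed from the Parental level by 0.20 (SE 0.33, 95% interval -0.48 to 0.88).

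Abcc3, an exporter of conjugated organic anions such as bile salts and drug glucuronides, was the expressed member with the largest share of its log2 variance between lines (80.8%, with 15.4% between Parental, Resistant and P12). Parental cells had 98.0 in #9 and 1925 to 5712 in the other lines (median of 6 lines 2912), Resistant cells had 28.0 to 2293 (median 543) and P12 cells 28.6 to 5888 (median 818). Each line was lower in its Resistant than in its Parental sample, by 1.32 to 2.96 on the log2 scale. The mean difference of -2.17 was not called across the spread of all lines (SE 1.40, limma adjusted p = 0.326) and was called with the cell line as a block (SE 0.34, limma adjusted p = 0.00042). P12 stood at 5888 in #7 and 2796 in #10, where Parental had 5712 and 3678, and at 534, 795, 841 and 28.6 in #3, #4, #6 and #9.

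The other expressed drug efflux members were not called in any comparison, with or without the block. Abcc1, the broad exporter of glutathione conjugates, had 4243 to 6898 normalized counts in Parental, 3733 to 10475 in Resistant and 5115 to 10640 in P12 cells, and its Resistant minus Parental difference was 0.21 (SE 0.24, 95% interval -0.29 to 0.70). Abcc5 had 2846 to 28526 in Parental, 6632 to 14301 in Resistant and 3926 to 14650 in P12 cells, with a difference of -0.33 (SE 0.50). For Abcc4, which exports cyclic nucleotides and prostaglandins, the ranges were 1042 to 7558, 1557 to 5477 and 972 to 5575, with a difference of -0.57 (SE 0.56). In each of these 3 genes the states overlapped, and Resistant #9 was above Parental #9 in Abcc4 and Abcc5 where the other 5 lines were below.

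Abcc10, an exporter of taxanes and other drugs, had 348 to 965, 504 to 1113 and 491 to 1305 normalized counts in Parental, Resistant and P12 cells, and a Resistant minus Parental difference of 0.42 (SE 0.29). Abcc2, the exporter of bilirubin glucuronides in liver, was low, with 4.92 to 91.7 in Parental, 3.83 to 19.9 in Resistant and 3.00 to 490 in P12 cells. Its Resistant minus Parental difference was -1.17 (SE 1.16). Its high P12 values were 490 in #7 and 124 in #10, above the 36.1 and 91.7 of their Parental cells. Abcb1a and Abcc3 were near Parental in P12 of these same lines. Abcb5, the last member of the efflux list, never exceeded 7.04 normalized counts and is not expressed by the rule. Over the 9 expressed efflux members the median log2 fold change in Resistant cells was -0.57, beside -0.0049 over all genes tested.

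**Figure D3:**
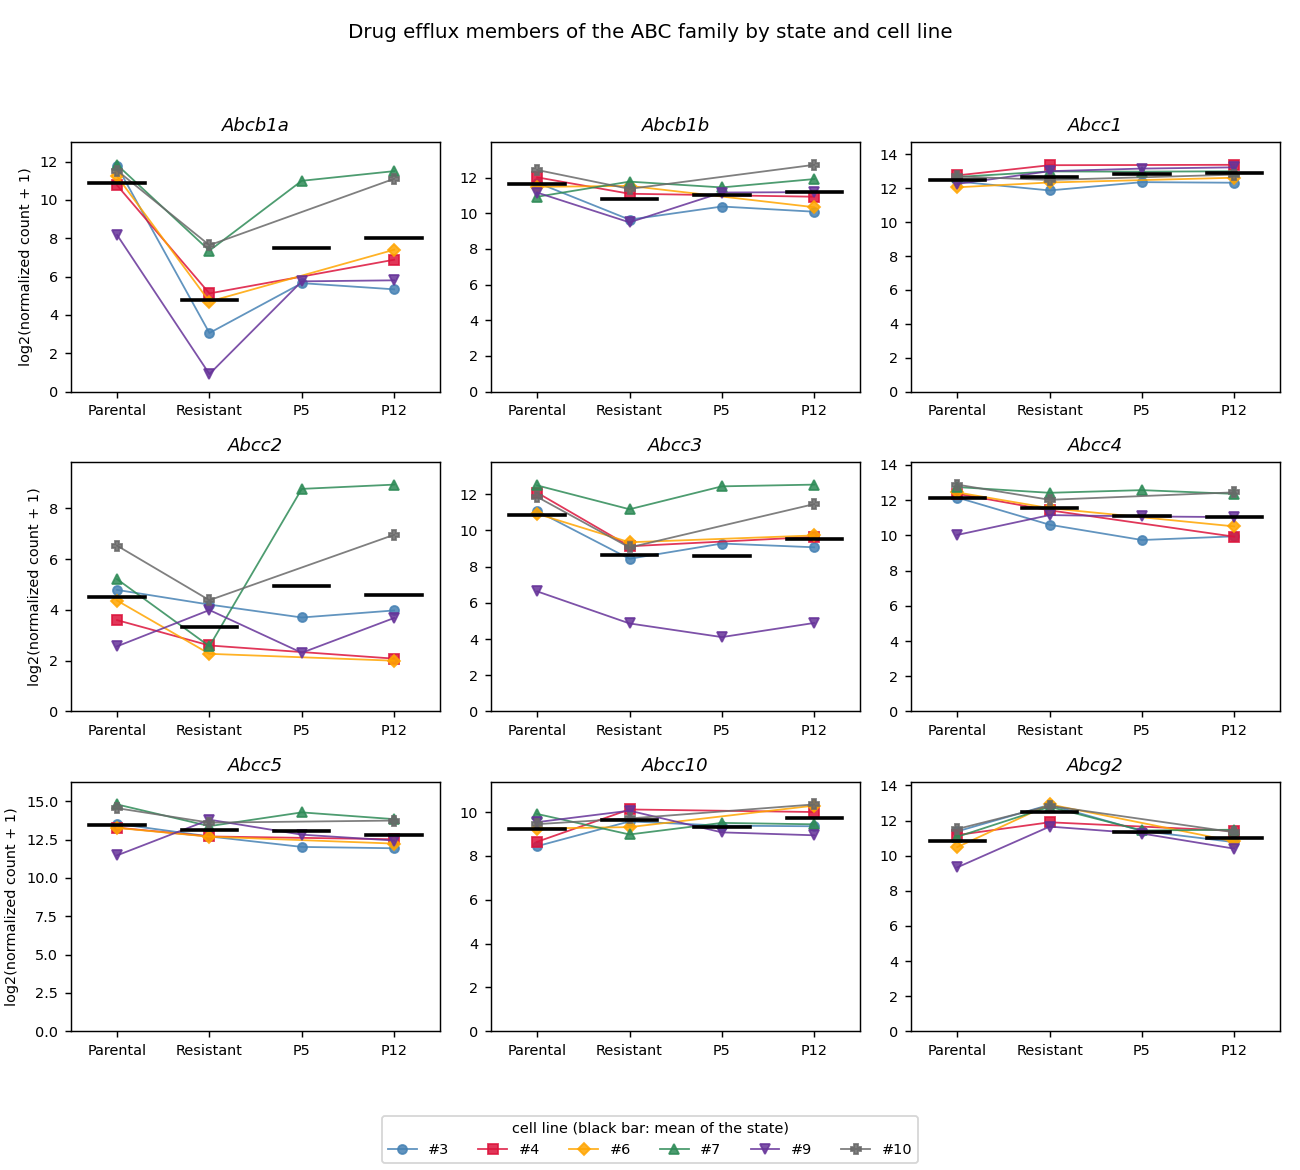
Log2(normalized count + 1) of the 9 expressed drug efflux members in Parental, Resistant, P5 and P12 cells. Symbols joined by lines are cell lines and black bars are means of a state. Abcg2 peaks in Resistant cells of all 6 lines, Abcb1a dips in all 6, and Abcc3 of line #9 runs far below the other lines in every state.

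Of the members that move sterols, phospholipids or bile salts, 16 of 18 were expressed. In Resistant cells 2 of the 16 were called higher (beside 2.57% of all genes), Abca8b and Abcb11, of which the second entered through its Resistant values. With the block 4 were called higher (beside 4.85%), Abca4, Abca8b, Abca9 and again Abcb11, and none was called lower in either fit. The median log2 fold change of the 16 was 0.49, beside -0.0049 over all genes tested. The count with the block and this median include Abcb11, so both are tied in part to its entry and are given as descriptions. Abca8b and Abca9 belong to a row of A members on chromosome 11, ordered Abca8b, Abca8a, Abca9, Abca6 and Abca5 with gaps of 4.77 to 29.8 kb between neighbours. Abca8b, linked to cholesterol export, had 47.4 to 281 normalized counts in Parental (median 90.2), 176 to 894 in Resistant (median 685) and 92.4 to 547 in P12 cells (median 235). It rose by 2.45 (SE 0.51, limma adjusted p = 0.0033), but Resistant #7, at 176, stood beside its Parental sample at 172. Leaving out #3, #4, #6 or #10 ended the call, with limma adjusted p-values of 0.0191, 0.0278, 0.0167 and 0.0262, as did a fit of both states alone with the block (0.0181).

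Abca9, whose substrate is not settled, was close to undetected in Parental cells, with 0 to 15.7 normalized counts and 3 of 6 samples at or under the floor. Resistant cells had 40.2 to 1021 (median 436), all above all Parental samples. The difference of 6.03 (SE 1.52; 4.66 with a pseudocount of 8) was just short of a call (limma adjusted p = 0.0119) and was called with the block (limma adjusted p = 0.00049) and without line #9 (limma adjusted p = 0.0042). P12 cells kept 251 in #3, 310 in #4 and 1356 in #6 and had 16.5 in #7, 0 in #9 and 9.76 in #10. Its low P12 values were thus those of #7, #9 and #10.

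The neighbours of these genes on chromosome 11 did not share one pattern. Abca8a reached 71.6 in P12 #4 and was at or under the floor in 4 of 6 Resistant samples, Abca6 had 0.94 to 24.1 in Resistant and 3.50 to 69.5 in Parental cells, and Abca5 had 192 to 4760 in Resistant and 878 to 2248 in Parental cells. None of the 3, named here for their position, was called.

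Because Abca8b and Abca9 lie close together and were both higher in Resistant cells, the 250 bases before their RefSeq transcription starts are shown, next to the same stretch of Abcb6, the mitochondrial and lysosomal member that rose. Build GRCm38.p6 of RefSeq gave 45 such windows for 38 members. Capitals mark a GC box (GGGCGG, or CCGCCC on the other strand) or a CCAAT box (CCAAT, or ATTGG on the other strand), and each sequence reads 5′ to 3′ towards its gene. The windows lie on the minus strand at chr11:109995846-109996095 for Abca8b, chr11:110168154-110168403 for Abca9 and chr1:75180393-75180642 for Abcb6.
Abca8b: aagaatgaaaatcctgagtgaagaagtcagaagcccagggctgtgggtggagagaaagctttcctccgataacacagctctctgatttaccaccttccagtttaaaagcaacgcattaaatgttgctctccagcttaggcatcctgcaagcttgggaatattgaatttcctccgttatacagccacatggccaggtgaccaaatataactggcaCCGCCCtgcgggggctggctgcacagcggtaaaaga
Abca9: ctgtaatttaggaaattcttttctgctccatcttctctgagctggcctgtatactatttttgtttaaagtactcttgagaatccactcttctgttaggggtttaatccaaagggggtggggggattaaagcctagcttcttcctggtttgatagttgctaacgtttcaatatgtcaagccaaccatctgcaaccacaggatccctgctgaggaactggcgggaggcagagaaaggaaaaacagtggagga
Abcb6: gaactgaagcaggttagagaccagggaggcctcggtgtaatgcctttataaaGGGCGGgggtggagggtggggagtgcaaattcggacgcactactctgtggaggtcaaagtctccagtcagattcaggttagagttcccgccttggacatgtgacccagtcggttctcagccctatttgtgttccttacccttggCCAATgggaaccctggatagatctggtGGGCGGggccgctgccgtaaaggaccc

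The window of Abca8b holds 1 GC box, that of Abca9 none of the motifs and that of Abcb6 2 GC boxes and 1 CCAAT box. CG pairs number 6, 2 and 9, where the median is 12 over the 45 windows of members and 6 over all 32851 RefSeq windows. GC boxes occur in 20 of the 45 windows (44.4%, beside 32.7% of all windows) and CCAAT boxes in 13 (28.9%, beside 33.8%). The AP1 motif TGACTCA, read on both strands, is in 0 of the 45 windows and in 4.46% of all windows, which says only that these letters are absent from these stretches.

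Abcb11, the bile salt export pump of liver, was at low levels, with 0.93 to 11.8 normalized counts in Parental cells (4 of 6 samples at or under the floor), 7.97 to 54.2 in Resistant cells (median 15.3) and 1.22 to 8.84 in P12 cells. Since it met the expression rule through 5 Resistant samples and 1 Parental sample, its differences from Resistant cells are given as descriptions. Resistant minus Parental was 2.67 (SE 0.57), higher in 6 of 6 lines and least in #9, where Parental had 11.8 and Resistant 14.2. The call was lost without #3, #4, #6 or #10 and in fits of both states alone. P12 minus Resistant was -2.14 (SE 0.57), lower in 6 of 6 lines.

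Abca4, a flippase of retinoids best known from photoreceptors, had 18.1 to 64.0 normalized counts in Parental (median 40.6), 62.9 to 1977 in Resistant (median 125) and 53.4 to 92.6 in P12 cells (median 61.0). Resistant #3 at 1977 and #4 at 585 were far above the others, and Resistant #10 at 62.9 overlapped the Parental range. The difference of 2.54 (SE 0.63) missed the threshold (limma adjusted p = 0.0110) and passed it with the block (limma adjusted p = 0.0067).

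Abca1, the exporter that loads cholesterol onto apolipoprotein A1, is named although it was not called, because its lines moved in opposite directions. Its values in Resistant cells were 2447 in #3, 5413 in #4, 57.2 in #6, 0 in #7, 14.3 in #9 and 2569 in #10. Parental cells of these lines had 20.3, 52.0, 187, 33.8, 496 and 38.4. It was thus higher in #3, #4 and #10 and lower in #6, #7 and #9, and the mean difference of 1.29 (SE 1.65, limma adjusted p = 0.658) describes no line. In P12 cells it was 136 to 2890 and above Parental in 6 of 6 lines, by 1.75 to 5.77, which did not pass the test (3.16, SE 1.65, limma adjusted p = 0.373).

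Abca2, Abca3 and Abca7, the A members with the highest levels per kilobase in Parental cells, had medians of 3788, 4152 and 3166 normalized counts in Parental cells and Resistant minus Parental differences of -0.37, -0.05 and 0.57. Abcb4, the phosphatidylcholine exporter next to Abcb1b on chromosome 5, was lower in 6 of 6 Resistant lines, by 0.38 to 1.90, and was not called (-1.07, SE 0.78, limma adjusted p = 0.392). In P12 it had 238 in #7 and 154 in #10 against 39.5 and 82.5 in Parental cells, and 7.66 to 44.1 in the other lines. These members, like Abca1, lie outside the rule for named genes and were picked after their values had been seen.

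**Figure D4:**
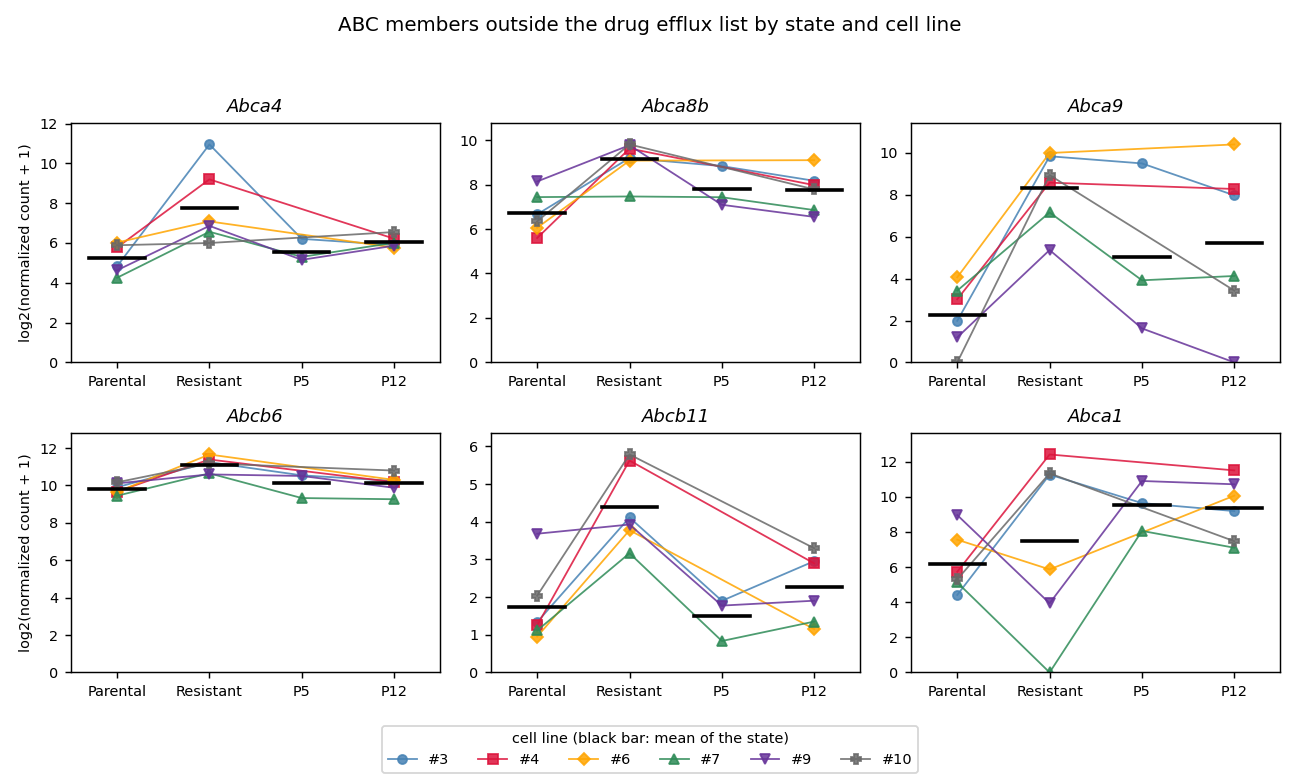
Log2(normalized count + 1) of 6 members outside the drug efflux list in Parental, Resistant, P5 and P12 cells, with symbols for cell lines and black bars for means of a state. Abca4, Abca8b, Abca9, Abcb6 and Abcb11 are higher in Resistant than in Parental cells of all 6 lines. Abcb11 met the expression rule mainly through Resistant samples. Against Parental cells, Abca1 is higher in 3 lines and lower in 3, with a value of 0 in Resistant #7.

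Abcb6, which has been placed in mitochondria, lysosomes and the plasma membrane and is linked to porphyrin transport, had 698 to 1148 normalized counts in Parental (median 886), 1540 to 3224 in Resistant (median 2367) and 613 to 1777 in P12 cells (median 1183). Every Resistant sample was above every Parental sample. The rise of 1.29 (SE 0.26, limma adjusted p = 0.0026) was seen in 6 of 6 lines, from 0.48 to 2.00, and lost its call without #3 (limma adjusted p = 0.0184), #4 (0.0217) or #6 (0.0251). P12 was lower than Resistant in 6 of 6 lines, by -1.01 (SE 0.26, limma adjusted p = 0.0240, and 0.0029 with the block), and 0.28 (SE 0.26) above Parental. Of its 31-base stretches, 52.1% also occur in the gene model Gm29253, which had at most 47.8 normalized counts in any sample, under the 613 of the lowest Abcb6 sample.

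The other 5 members of the mitochondrial and lysosomal list were not called. Abcb10, which serves haem formation in mitochondria, had a Resistant minus Parental difference of -0.48, and Abcb8, a part of a mitochondrial potassium channel, of -0.03. Abcb9, a lysosomal peptide transporter, was low, with 17.2 to 35.7 normalized counts in Parental and 20.4 to 97.6 in Resistant cells. Abcd4, which helps cobalamin leave the lysosome, was nearest to a call among them (-1.27, SE 0.37, limma adjusted p = 0.0246, and 0.0124 with the block), lower in 5 of 6 lines and higher in #9.

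The peroxisomal members Abcd2 and Abcd3, which import fatty acids, were not called. Abcd2 had 0 to 152 normalized counts in Parental (median 1.46), 2.39 to 35.0 in Resistant and 10.2 to 114 in P12 cells. It was above Parental in 5 of 6 P12 lines, and the exception was #9, whose Parental cells had 152. The P12 minus Parental difference of 3.40 (SE 1.02) was the smallest p among the members in that comparison without being called (limma adjusted p = 0.121, and 0.0234 with the block). Abcd3, an abundant member, was lower in P12 than in Parental cells of 6 of 6 lines, by 0.10 to 1.21, and was not called either (-0.68, SE 0.26, limma adjusted p = 0.222).

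Of the channel regulators and other C members, 3 of 4 were expressed and none was called. Abcc8, the sulphonylurea receptor that forms the ATP-sensitive potassium channel with Kcnj11, had 7.83 to 579 normalized counts in Parental (median 49.0), 1.52 to 25.1 in Resistant (median 7.98) and 0 to 57.9 in P12 cells (median 11.4). It was lower in 5 of 6 Resistant lines and higher in #9 (-2.60, SE 1.08, limma adjusted p = 0.111). Kcnj11 itself, from the list of protein partners, fell in Resistant cells (-4.06, SE 0.91, limma adjusted p = 0.0057), with 9.59 to 340 in Parental and 0 to 3.66 in Resistant cells. Its Resistant values lay around or under the floor of 3 reads. No Resistant sample of Kcnj11 reached 10 normalized counts, so its entry into the test rested on the other states. Abcc6, a liver transporter tied to the release of ATP, spanned 0 to 154 in Resistant cells, where only #9 was high.

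The 4 members that act on ribosomes and translation, Abce1, Abcf1, Abcf2 and Abcf3, showed small differences between the states. Abce1, which splits ribosomes after termination, had 5328 to 11728 normalized counts in Parental, 6776 to 11565 in Resistant and 5355 to 11604 in P12 cells. Differences of the 4 between Resistant and Parental cells ran from -0.06 to 0.36 and between P12 and Parental cells from -0.30 to 0.14, with standard errors of 0.15 to 0.25. None was called.

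**Figure D5:**
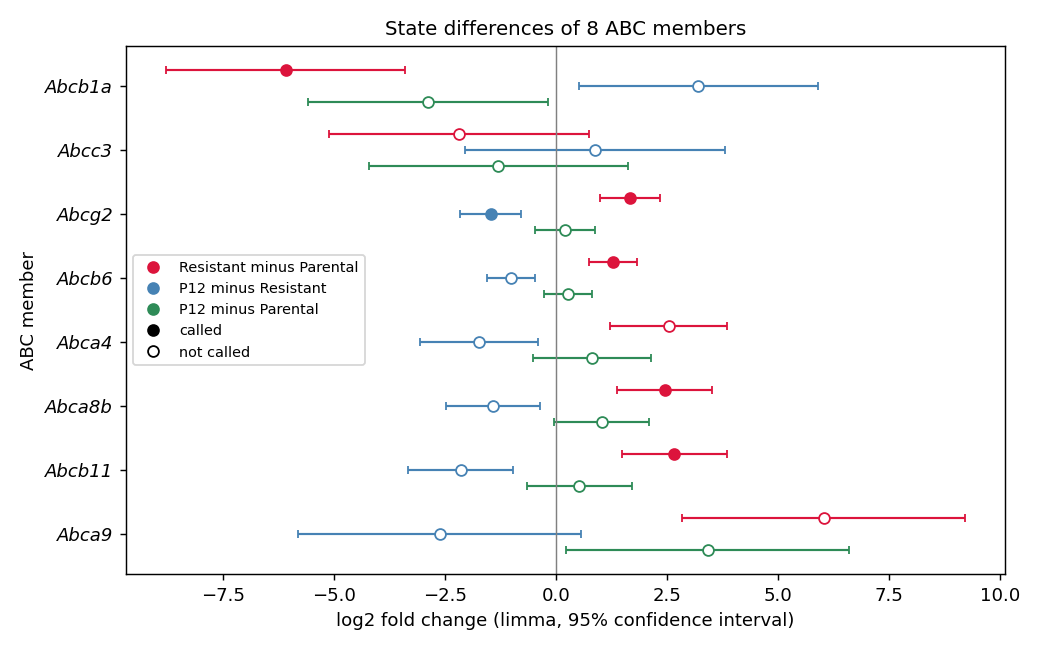
Log2 fold changes with 95% confidence intervals from limma for the 8 members called in Resistant minus Parental with or without the cell line as a block, in 3 comparisons. Filled circles are called without the block. Abcg2 is the only member with filled circles in 2 comparisons (1.67 and -1.47), and no P12 minus Parental circle is filled.

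The 9 remaining rows of the family did not reach the expression rule: Abca13, Abca14, Abca15, Abca16, Abca17, Abcb5, Abcc9, Abcg3 and Abcg8. Just inside the rule lay Abca12 and Abcg5, each with 5 samples at 10 or more and a highest value of 16.0 and 24.8. Just outside lay Abca14 with 2 such samples, and Abca13, Abca17 and Abcg8 with 1 each. The single high value of Abca13 was 53.0 in Resistant #10.

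Across all expressed members, P12 cells were nearer to Parental in some lines than in others. Within 1 log2 unit of the Parental value lay 30 of 41 members in #7 and 32 in #10, and 18, 20, 22 and 22 in #3, #4, #6 and #9. As shares these are 73.2% and 78.0% in #7 and #10 and 43.9% to 53.7% elsewhere, where over all genes tested they were 73.0% and 74.2% in #7 and #10 and 63.0% to 73.4% elsewhere. These are descriptions of single samples per line and state, with no test.

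P5 samples, described without a test, mostly resembled the P12 sample of their line. Within 1 log2 unit of P12 lay 34 of 41 members in #3, 38 in #7 and 37 in #9. Within 1 unit of Resistant lay 24, 22 and 25, and within 1 unit of Parental 16, 27 and 24. Shares over all genes tested were not computed for P5, so these counts cannot be called particular to the members. Abcb1a at P5 had 49.5 normalized counts in #3, 2044 in #7 and 52.9 in #9. Abcg2 at P5 had 2725, 2774 and 2458 in these lines, against 7647, 7066 and 3232 in Resistant cells. For #7 and #9 the conflict between 5 and 12 passages in the labels bears on these values.

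ABC proteins with other names were measured as a list of 3. Tap2, a subunit of the peptide transporter that loads MHC class I, had 7.23 to 46.0 normalized counts in Parental and 268 to 1528 in Resistant cells, and it rose (4.83, SE 0.79, limma adjusted p = 0.00059). Its partner Tap1 was higher in 6 of 6 lines (4.03, SE 1.06, limma adjusted p = 0.0153, and 0.0012 with the block). Cftr was lower in 6 of 6 lines, with 20.1 to 2000 in Parental and 3.30 to 711 in Resistant cells (-2.83, SE 1.55, limma adjusted p = 0.238, and 0.0097 with the block).

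Among 12 expressed nuclear receptors and factors known to act on ABC genes, 1 rose and 2 fell in Resistant cells (beside 2.57% and 2.73% of all genes), and 1 was higher and 4 lower with the block (beside 4.85% and 5.6%). Vdr, the vitamin D receptor, rose by 5.04 (95% interval 2.56 to 7.51, limma adjusted p = 0.0077) in 5 of 6 lines. Pparg, a regulator of lipid genes, fell by 5.37 (SE 1.02, limma adjusted p = 0.0017), and Rxra, the common partner of these receptors, fell by 1.65 (SE 0.34, limma adjusted p = 0.0029). Nr1i2, the xenobiotic receptor PXR that acts on Abcb1a, had 0 to 565 normalized counts in Parental and 0 to 1.25 in Resistant cells (-5.01, SE 1.34, limma adjusted p = 0.0165, and 0.0018 with the block). All Resistant values of Nr1i2 were under the floor of 3 reads, so its entry into the test rested on the other states. Nr1h3, the sterol sensor LXR alpha, was lower in 6 of 6 lines (-2.72, SE 0.75, limma adjusted p = 0.0192, and 0.00066 with the block) and in P12 higher than in Resistant cells of 6 of 6 lines (2.29, limma adjusted p = 0.0763, and 0.0042 with the block). Nfe2l2, which drives Abcc genes in the response to electrophiles, was not called (-0.96, SE 0.32, limma adjusted p = 0.05).

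Of 11 partners in sterol export, 1 was called in Resistant cells, beside 5.3% of all genes: Pltp, which transfers phospholipids between lipoproteins, had 12.7 to 407 normalized counts in Parental and 1760 to 9065 in Resistant cells and rose by 5.26 (SE 1.07, limma adjusted p = 0.0029) in 6 of 6 lines. Npc1, which exports cholesterol from lysosomes, was lower in P12 than in Resistant cells of 6 of 6 lines (-1.41, SE 0.32, limma adjusted p = 0.0121, and 0.0028 with the block). Apart from Kcnj11, the 6 expressed protein partners held Atp8b1, the flippase that works beside Abcb11 in liver, which was lower in 6 of 6 Resistant lines and was called with the block alone (-2.65, SE 1.40, limma adjusted p = 0.218, and 0.0061 with the block).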

How the data were processed

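Of 6 lines in 4 states, 21 RNA samples were prepared with a stranded mRNA kit and sequenced on more than 1 Illumina model, with no assignment of samples to a model in the sources used here, so no comparison within sequencing batches was made. According to the submitters' processing notes and the methods, the authors called bases with CASAVA 2.17 or bcl2fastq 2.19, quantified transcripts with Salmon 0.12, summed them to genes and normalized the counts with DESeq2 1.18 (build mm10; the annotation release is not given in the sources used here). The deposited signal values are these normalized gene counts. Whole reads could not be recovered from them, since only 58.0% to 74.0% of the low values of a sample fell on multiples of 1 step (tolerance 0.05 of a step), so no count test was run. Groups came from the sample titles. Some genes and 1 allele are not reported here.

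Genes with 10 or more normalized counts in 3 or more samples (19300 of 34478; 441 were at 0 in every sample) were tested on log2(value + 1) with limma 3.58.1 in R 4.3.3, all 21 samples in 1 fit without covariate, with a trend and Benjamini-Hochberg adjustment over all genes tested. Fold changes on this scale understate differences of low genes. Samples of the same cell line deviated together from their state means, with a mean r over genes of 0.24, 0.46 and 0.32 in the Resistant and Parental, P12 and Resistant, and P12 and Parental pairs (lowest 0.16, 0.34 and 0.0082), and the shared cell line is the pairing used for the block. Each line was sampled once per state. Without the block, p-values measure the spread between lines within states and treat samples of a line as independent. With the block, they measure the spread left after the means of line and state are taken out.

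Members, lists and tests were chosen with earlier results of these data known. Named in full are members called in any comparison with or without the block and the drug efflux list; others are said to lie outside that rule. Gene positions, lengths and shared 31-base stretches come from GENCODE M21, which holds all 50 members, and promoter windows from RefSeq. The alternatives were pseudocounts of 0.5 and 8, no filter, a mean of at least 100, upper quartile rescaling, the block, no trend, an adjusted p below 0.05, the compared states alone and each line left out. The code of the fit was also run on simulated data, whose spread was not matched to that of these data. Python 3.11.15, numpy 2.4.6, pandas 2.3.3 and matplotlib 3.10.9 were used.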

Additional observations from a re-analysis of the deposited data

Results flagged for a closer look

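In 4 of 42 groups of 6 samples tested, 1 sample stood apart from the others by Dixon's criterion, which chance meets in about 1 in 20 groups. For 3 drug efflux members the sample was Parental #9, the lowest of its state. It had 288 normalized counts of Abcb1a, where the next Parental line had 1736, 98.0 of Abcc3 beside 1925, and 1042 of Abcc4 beside 4547. The epithelial marker sum of Parental #9 was 15942, beside 212444 to 282743 in the other Parental lines, and its part in these low values was not tested. Without line #9 the Resistant minus Parental count of called members was 7 in place of 5. The other sample was Resistant #7, whose Abca8b level was 176 normalized counts beside 539 in the next Resistant line. Its fibroblast marker sum was 1881, beside 22771 to 560350 in the other Resistant lines.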

How the results depend on the processing

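For Resistant minus Parental, 5 members were called, with 8 when the line was a block and 8 at an adjusted p below 0.05; leaving out 1 line gave 0 to 7. For P12 minus Resistant, 1 was called (Abcg2), and 0 with pseudocounts of 0.5 or 8, no filter, upper quartile rescaling, no trend or the compared states alone, 4 with the block and 3 at an adjusted p below 0.05. Leaving out 1 line gave 0 to 1, with the 1 reached only without #9. P12 minus Parental gave 0 throughout. The limma adjusted p of Abcg2 in P12 minus Resistant ranged from 0.0015 to 0.0683 over these alternatives. Over the named members' differences, 613 alternative values kept direction and side of the threshold, 32 lost the call, 15 gained it and 4 turned direction: Abcc10 in P12 minus Resistant (-0.071 without #6, -0.0034 without #10, and up to 0.35 without #9) and Abcc2 in P12 minus Parental (-0.63 without #7, -0.11 without #9, and up to 0.59 without #6), none of them called in either direction. A mean of at least 100 left no value for the low members Abcb11 and Abcc2. A fit of the compared states alone with the block, chosen after seeing the data, gave 5 and 1. The cause of these changes was not tested. A fit without a line also has fewer samples. Upper quartile rescaling moved the median of all genes in P12 minus Resistant from 0.02 to 0.11. Members near the floor of 3 reads, such as Abcb11, Abca9 in Parental and Abcb1a in Resistant cells, carry counting error that the fits do not show.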

Other observations

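In the balanced set of 6 lines by Parental, Resistant and P12, the cell line held a median of 32.6% of the log2 variance of the 41 expressed members, the state 20.7% and the remainder 39.8%, beside 35.8%, 19.8% and 36.6% over all genes tested. The line held more than the state in 27 of 41 members (65.9%, beside 67.1% of all genes). The state share was highest in Abcb6 (68.2%), Abcg2 (62.9%) and Abcb11 (61.4%), followed by Abca8b (59.1%) and Abcb1a (58.8%). That of Abcb11 is tied to its entry, since it met the expression rule through 5 Resistant samples and 1 Parental sample. The line share was highest in Abcc3 (80.8%), Abca5 (66.1%) and Abcg1 (65.2%). Abcg1, an exporter of cholesterol to lipoproteins, had 28.4 to 276 normalized counts in the 4 samples of #7, and no sample of another line exceeded 55.6. Samples of a line share their origin, so these shares are descriptions.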
